A study of Mus musculus with 5 samples.

Results

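Glutamate and GABA transmitter identity was followed through 6 genes, chosen by symbol among the 31054 features of the count matrices. Slc17a6, Slc17a7 and Slc17a8 encode the vesicular glutamate transporters VGLUT2, VGLUT1 and VGLUT3, Gad1 and Gad2 encode the GABA-synthesizing enzymes GAD67 and GAD65, and Slc32a1 encodes the vesicular GABA transporter VGAT. Each gene was measured by unique molecular identifiers (UMIs, one per captured RNA molecule) in single nuclei of the mouse paraventricular hypothalamic nucleus (PVH). A nucleus was taken as a neuron when Rbfox3, Snap25 and Syt1, 3 genes of neurons, together gave at least 15 UMIs per 10000, which held for 17582 of the 29537 nuclei used. The 1075 nuclei just outside, at 12 to 15 per 10000, held Gad2 at 126 and Slc17a6 at 63.3 UMIs per 1000000 UMIs (CPM), and the 1157 just inside, at 15 to 18, held them at 131 and 65.9 CPM. The 6 genes gave 13645, 562, 469, 14425, 39101 and 2349 UMIs in these neurons, for Slc17a6, Slc17a7, Slc17a8, Gad1, Gad2 and Slc32a1 in that order.

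The study held 5 libraries from male mice on a C57BL6 background, each pooled from 2 to 4 animals. In the first experiment, OT-Cre; Rosa26tm9(CAG-tdTomato)Hze mice, which carry a red reporter in cells with a history of oxytocin-driven Cre, came from dams injected at gestation day 12.5 with 10 mL/kg saline (1 library) or 500 mg/kg sodium valproate (VPA, 1 library). Nuclei were collected when these mice were 5 weeks old. The second experiment used other animals: all OT-Cre; Rosa26dreaddm3 mice had been exposed to VPA before birth in the same way. They carry the activating receptor hM3 in Cre-positive cells, received saline (hM3 saline, 1 library) or its ligand CNO (hM3 CNO, 2 libraries) at postnatal day 2, and had an adeno-associated virus, whose content is not given in the sources used here, injected in the PVH and supraoptic regions. Their age was 5 to 7 weeks. All 3 libraries of the second experiment therefore share the genotype and the VPA exposure, and the labels do not say whether the CNO pools came from separate litters, so p-values measure only the spread between these pools. Tissue of the first experiment was dissected by its red fluorescence, and nuclei of all libraries were sorted on DAPI with a gate that favoured large, neuron-sized ones, which can set the shares of cell types. The first question was what prenatal VPA changes in the PVH, and the second what stimulation of oxytocin neurons in newborn VPA-exposed mice changes later. With 1 library against 1 the VPA comparison has no test, and with 1 against 2 the smallest exact permutation p is 0.333.

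Glutamate and GABA are the main fast excitatory and inhibitory transmitters of the hypothalamus. A neuron releases glutamate when a VGLUT loads it into synaptic vesicles, and releases GABA when GAD65 or GAD67 makes it from glutamate and VGAT loads it. Oxytocin and other Sim1-lineage neurons of the PVH are known as mainly VGLUT2 neurons, while the surrounding hypothalamus holds many GABA neurons. VGLUT1 is known from cortex, cerebellar granule cells and parts of the thalamus, and VGLUT3 from scattered populations that often use a further transmitter.

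The libraries differed in depth and in the neurons they held, and these differences bear on all 6 genes. Neurons numbered 3244 (saline), 6618 (VPA), 2773 (hM3 saline), 2437 (hM3 CNO replicate 1) and 2510 (hM3 CNO replicate 2), with median UMIs of 13316, 6204, 16779, 17985 and 10682.5. Any pair of libraries shared 4 to 23 cell barcodes. Neurons were clustered without the 6 genes. The paraventricular neuron-like clusters (marked by Sim1, Otp, Oxt and others) made up 13.96, 10.3, 8.62, 3.08 and 6.49% of neurons in the library order just given, 1609 neurons in 4 clusters. A further 4 clusters with 1807 neurons had Sim1 at 226 to 346 CPM but fewer than 3 of the markers at 3 times or more their mean over the clusters, and stay unnamed. They made up 11.7, 13.5, 8.65, 6.77 and 5.10% of neurons, so the named share does not hold all Sim1-rich neurons. Thalamic neuron-like clusters (Tcf7l2, Lef1, Prkcd and others) made up 9.12, 2.64, 3.61, 9.52 and 10.6%, and neuron clusters that also carried glial markers 1.88, 1.99, 8.26, 10.0 and 26.1%. Tcf7l2 stood at 743 and 778 CPM in the thalamic neuron-like clusters. Unnamed clusters led by Gm19303, by 1700023F02Rik and by Prkch held it at 610, 430 and 401 CPM. The thalamic neuron-like share thus does not hold all Tcf7l2-rich neurons. A cluster led by Gabra6, Fat2 and Il16, a cerebellar granule neuron-like pattern, held 120 neurons, 99.2% of them from the VPA library. The libraries thus held neurons of other types beside paraventricular neuron-like ones, in shares that differed between libraries. Where these other neurons came from was not tested. In summed nuclei, fewer cells of a type and less RNA per cell cannot be told apart.

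All 6 genes lie on 3 chromosomes (GENCODE vM21, mm10, which is GRCm38). Slc17a6 spans chr7:51622006-51671119 and Slc17a7 chr7:45163949-45176142, both on the plus strand, and Slc17a8 spans chr10:89574020-89621253 on the minus strand. Gad1 spans chr2:70553072-70602014, Gad2 chr2:22622205-22693874 and Slc32a1 chr2:158610767-158615748, all on the plus strand. An antisense gene overlaps 2 of them, Gad1os at Gad1 and Gm14205 at Slc32a1. The sources used here do not give whether intron reads or strand were used in counting, so a part of the counts of these 2 genes that came from an antisense partner cannot be told apart from their own.

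The upstream sequences of the 3 GABA genes, whose levels moved together over the clusters, and of Slc17a6, which moved against them, are shown from RefSeq (GRCm38.p6). All 6 genes matched. The window searched was the 250 bases before the RefSeq start, and its bases are printed up to the first base that GENCODE annotates as an exon of the gene within the window, with motif matches in capitals. The Gad1 stretch lies inside the annotated gene span, in an intron of the transcript whose first exon starts at the gene's left end, and just before the first exon of other Gad1 transcripts. Each motif was searched on both strands. The homeodomain core was TAATTA and was found in 4.84% of 32851 promoter windows of the same length. The GC box was GGGCGG, found in 32.7% of them. The TATA box was TATAAA, found in 12.4%.
Gad1, chr2:70561879-70562041, plus strand: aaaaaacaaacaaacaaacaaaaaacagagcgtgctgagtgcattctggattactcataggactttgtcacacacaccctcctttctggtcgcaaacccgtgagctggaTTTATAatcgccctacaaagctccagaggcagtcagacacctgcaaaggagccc
Gad2, chr2:22622077-22622204, plus strand: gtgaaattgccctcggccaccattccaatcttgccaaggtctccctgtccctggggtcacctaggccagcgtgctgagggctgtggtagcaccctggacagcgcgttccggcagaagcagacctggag
Slc32a1, chr2:158610508-158610757, plus strand: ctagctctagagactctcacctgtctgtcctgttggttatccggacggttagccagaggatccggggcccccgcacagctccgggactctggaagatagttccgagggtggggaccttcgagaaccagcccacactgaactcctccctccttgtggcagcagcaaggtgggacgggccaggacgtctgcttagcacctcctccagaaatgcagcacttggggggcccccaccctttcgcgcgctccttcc
Slc17a6, chr7:51621580-51621829, plus strand: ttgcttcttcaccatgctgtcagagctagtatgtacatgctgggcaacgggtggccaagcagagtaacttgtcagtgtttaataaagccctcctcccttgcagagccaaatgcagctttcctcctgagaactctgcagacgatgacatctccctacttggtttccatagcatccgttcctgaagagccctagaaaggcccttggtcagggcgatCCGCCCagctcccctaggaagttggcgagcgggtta
Gad1 held 1 TATA box, on the reverse strand, and 1 GC box in the part of the window not printed. Slc17a6 held 1 GC box on the reverse strand in the window shown. RefSeq gives Slc17a6 a further start, whose window (chr7:51624387-51624636, not printed) held 1 homeodomain core, 81 bases before the start, and 0 GC boxes. Gad2 and Slc32a1 held none of these motifs in this window, which says nothing of the factors that bind there. The windows of the 3 GABA genes were 58.0 (Gad1), 64.0 (Gad2) and 62.4% (Slc32a1) G and C, against a median of 52.4% over all windows. Those of Slc17a6 were 53.2 and 41.2%, that of Slc17a7 61.2%, and those of Slc17a8 57.2 and 44.8%. A high share of G and C was thus not particular to the GABA genes. The windows of the 3 GABA genes shared no match among the motifs searched.

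Slc17a6, the main vesicular glutamate transporter of the hypothalamus and thalamus, stood at 63.8 CPM of all neuron UMIs in the saline library, 49.7 in VPA, 47.4 in hM3 saline, 59.4 in hM3 CNO replicate 1 and 61.3 in replicate 2. The 95% exact Poisson intervals, which cover counting error only, were 61.6 to 66.1 for saline and 47.7 to 51.7 for VPA. The saline library was the highest, and both CNO libraries lay above their control. Slc17a7 was rare, at 2.18, 1.58, 0.757, 2.48 and 5.29 CPM in the same order, from 106, 73, 43, 132 and 208 UMIs. hM3 CNO replicate 2 was the highest and stood apart from its own replicate by more than either interval. Slc17a8 was rare too, at 2.84, 1.30, 1.69, 1.88 and 1.91 CPM, from 60 to 138 UMIs a library. Saline was the highest, and the counting intervals of the other 4 overlapped each other.

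Gad2, the enzyme held mainly at nerve terminals, stood at 146, 173, 183, 165 and 123 CPM. hM3 saline was the highest and hM3 CNO replicate 2 the lowest. Gad1, the enzyme of the cell body and of basal GABA supply, stood at 43.3, 67.9, 64.5, 70.5 and 45.4 CPM. The saline library and hM3 CNO replicate 2 were low, with overlapping counting intervals, and the other 3 lay between 64.5 and 70.5 CPM. Slc32a1, the loader of GABA into vesicles, stood at 6.13, 7.51, 11.7, 10.8 and 11.9 CPM. Its values split by experiment, with both libraries of the first below all 3 of the second. The experiments also differ in genotype, virus and age, which cannot be told apart.

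**Figure D1:**
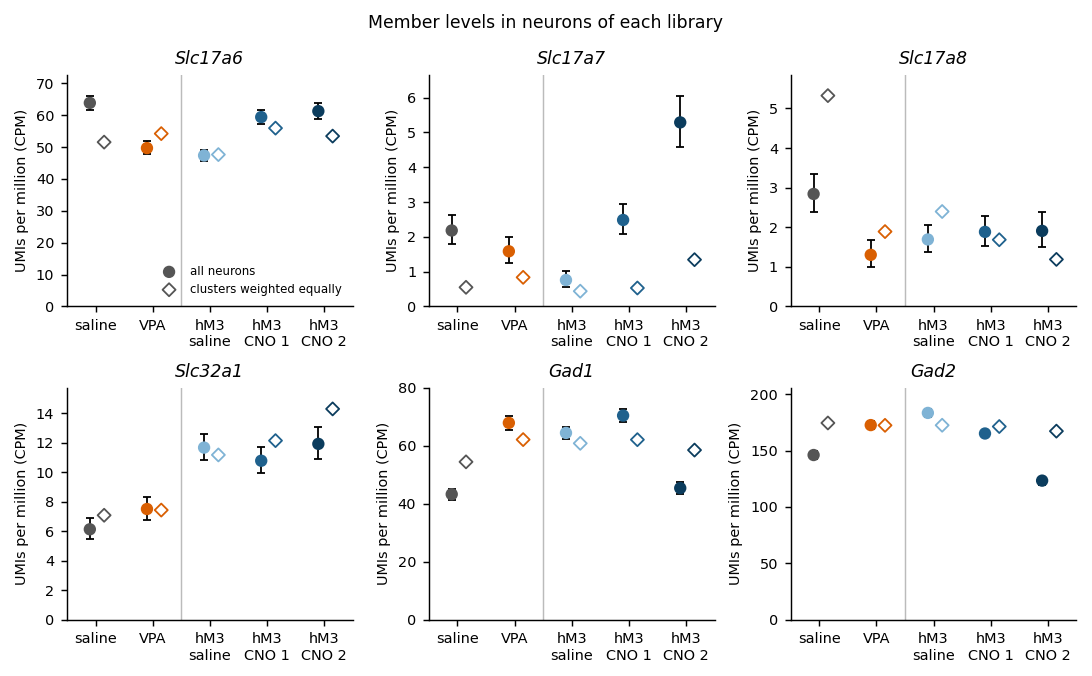
Level of each gene in the neurons of each library, in CPM on a linear axis from 0. Filled points are sums over all neurons with 95% exact Poisson intervals, open diamonds are means over the 28 clusters present in all libraries with equal weight, and the grey line parts the experiments. Gad2 spans 123 to 183 CPM over all neurons and 167 to 175 with equal weight.

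Sparse counts leave many positive nuclei without a UMI, so shares were compared after each neuron was thinned to 3000 UMIs. Thinning left out 12, 386, 20, 24 and 161 shallower neurons in the library order above. At that depth Gad2 was seen in 30.7, 34.9, 37.1, 34.1 and 25.9% of neurons, against 51.7, 48.8, 68.1, 65.0 and 52.6% before thinning. Slc17a6 was seen in 14.2, 11.2, 11.3, 14.5 and 14.9%, against 39.8, 21.3, 37.0, 41.7 and 42.8% before. Gad1 was seen in 11.8 to 18.1%, Slc32a1 in 2.17 to 3.60%, Slc17a7 in 0.182 to 1.58% and Slc17a8 in 0.290 to 0.619%. Free RNA sets a floor under these shares, and oligodendrocyte-like nuclei, which should lack the genes, were taken as its measure. Their median depth was 1743 to 3809 UMIs, against 6204 to 17985 for neurons, and at 3000 UMIs they showed Gad2 in 1.89 to 5.43%, Gad1 in 0.431 to 3.38% and Slc17a6 in 0 to 1.70%. Each of these lay below the neurons of its own library. Astrocyte-like nuclei reached higher values, with Gad2 in 3.49 to 10.3%, Gad1 in 1.53 to 5.47% and Slc17a6 in 1.44 to 5.14%. Microglia-like nuclei, 1 to 64 a library at this depth, showed these 3 genes in 0 to 17.6%, 0 to 11.8% and 0 to 14.7%. In hM3 CNO replicate 1 their Slc17a6 share, 14.7%, was not below the 14.5% of its neurons. Slc32a1 was seen in 0 to 2.36% of oligodendrocyte-like nuclei, and Slc17a7 and Slc17a8 in 0% of them. For each of these 3 genes the exact binomial interval overlapped that of the neurons in all 5 libraries. Oligodendrocyte-like nuclei numbered only 53 to 589 a library at this depth. The shares of all neurons with Slc32a1, Slc17a7 or Slc17a8 were thus not separated from those of oligodendrocyte-like nuclei at this depth. Slc32a1 is read below only where it was compared among neurons, whose clusters ran from 0.677 to 34.6 CPM.

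By these genes neurons fell into those with a Slc17 UMI and no GABA gene UMI (Slc17-only), those with Gad1, Gad2 or Slc32a1 and no Slc17 gene (GABA-only), those with both, and those with neither. Slc17-only neurons were 13.8% of thinned neurons in saline, 10.2% in VPA, 9.59% in hM3 saline, 12.3% in hM3 CNO replicate 1 and 14.05% in replicate 2. GABA-only neurons were 35.1, 41.9, 43.5, 41.7 and 31.4%. Neither kind of gene was seen in 43.5 to 52.1%, which at this depth does not show that those neurons lack the genes. The VPA library held 3.56 percentage points fewer Slc17-only neurons than saline (95% counting interval 2.16 to 5.00 fewer) and 6.81 points more GABA-only neurons (4.73 to 8.87). Both CNO libraries lay above their control in the Slc17-only share and below it in the GABA-only share, but replicate 1 was only 1.83 points below in the latter and replicate 2 was 12.1 points below. The differences between VPA and saline were larger than counting error, but no spread between animals was measured. With detection at 2 UMIs or more the Slc17-only difference was -0.441 points, and its counting interval of -1.11 to 0.18 held 0. The thalamic neuron-like share, 9.12% in saline and 2.64% in VPA, moved the same way as the Slc17-only share. Without those clusters the VPA minus saline difference was -2.16 points for Slc17-only and 4.48 points for GABA-only neurons. The unnamed clusters rich in Tcf7l2 stayed in. Those led by Gm19303 and by 1700023F02Rik were 3.42 and 5.76% of neurons in saline and 2.10 and 4.35% in VPA.

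**Figure D2:**
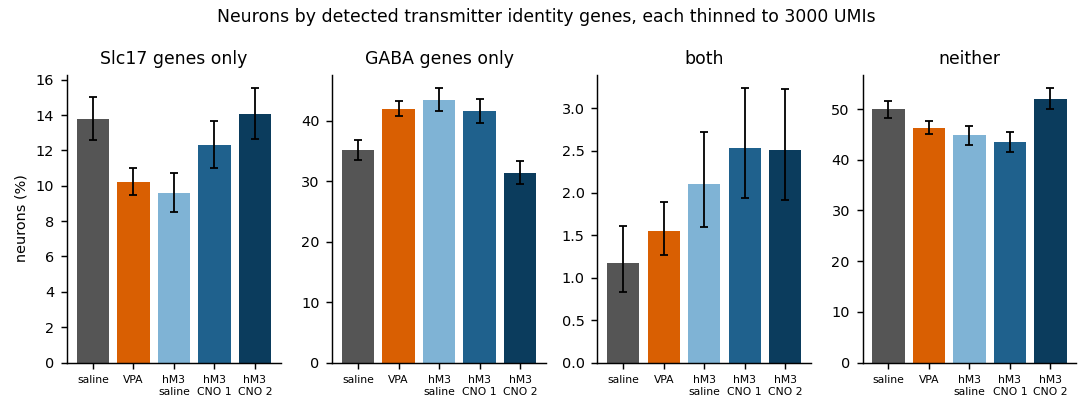
Share of neurons in each of the 4 classes by library, in percent of neurons thinned to 3000 UMIs, on axes from 0 that differ between panels. Bars are shares with 95% exact binomial intervals, and GABA-only neurons run from 31.4 to 43.5% while neurons with both kinds of gene stay between 1.18 and 2.53%.

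After thinning, 75.8 to 79.4% of the neurons with any GABA gene held only 1 of the 3, and 0.558 to 1.78% held all 3. Neurons with both a Slc17 gene and a GABA gene were scarce: 1.18% in saline, 1.56% in VPA, 2.11% in hM3 saline and 2.53 and 2.51% in the CNO libraries. Without thinning the same shares were 9.77, 5.55, 19.7, 20.5 and 23.9%, so the share depends on depth. After thinning, the pooled share still differed with the deposited depth of the nucleus. Over all libraries it was 1.51 to 1.64% in the bins below 24000 UMIs and 3.78% (3.03 to 4.66) in the 2247 neurons above. Above 24000 UMIs it was 3.67, 4.05 and 5.40% in the 3 libraries of the second experiment. In saline it was 1.44% (0.468 to 3.32) there, against 1, 1.68 and 0.754% in the bins from 3000, 6000 and 12000 UMIs. That interval is too wide to show whether saline shared the rise, and VPA had 21 neurons so deep. The pooled share was 2.98% in neuron clusters with glial markers, 1.76% in the rest, and 3.05% (2.21 to 4.08) in nuclei removed as likely doublets. The first of these gaps was 3.80 against 2.09% in hM3 CNO replicate 2, which held 579 of the 1173 neurons with glial markers, and went the other way in replicate 1, at 1.71 against 2.62%. The part of doublets, of free RNA and of true co-expression in the remaining nuclei was not tested.

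Detection of the genes in the same nucleus followed the 2 transmitter sets. Among neurons with Slc17a6, Gad2 was seen in 6.32% (saline), 8.15% (VPA), 13.5% (hM3 saline), 11.1% and 10.5% (hM3 CNO), against 34.7, 38.3, 40.1, 38.0 and 28.6% of neurons without it. The intervals did not overlap in any library. Gad1 was seen in 1.74 to 6.57% of neurons with Slc17a6 and in 12.9 to 20.02% of those without. The GABA genes went the other way: 45.1 to 58.5% of Gad1 neurons had Gad2, against 23.3 to 33.6% of neurons without Gad1. Gad2 was also seen in 42.0 to 64.3% of Slc32a1 neurons against 25.3 to 36.5% of the rest, higher in 5 of 5 libraries. Of the 76 thinned neurons with Slc17a7, 0 had Slc32a1, 1 had Gad1 and 5 had Gad2, while 12 had Slc17a6. Of the 69 with Slc17a8, 17 had Slc17a6, 14 had Gad2, 6 had Gad1 and 0 had Slc17a7. Slc17a6 was seen more often with Slc17a8 than without it in 4 libraries, but with so few nuclei this is a count and not a rate.

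**Figure D3:**
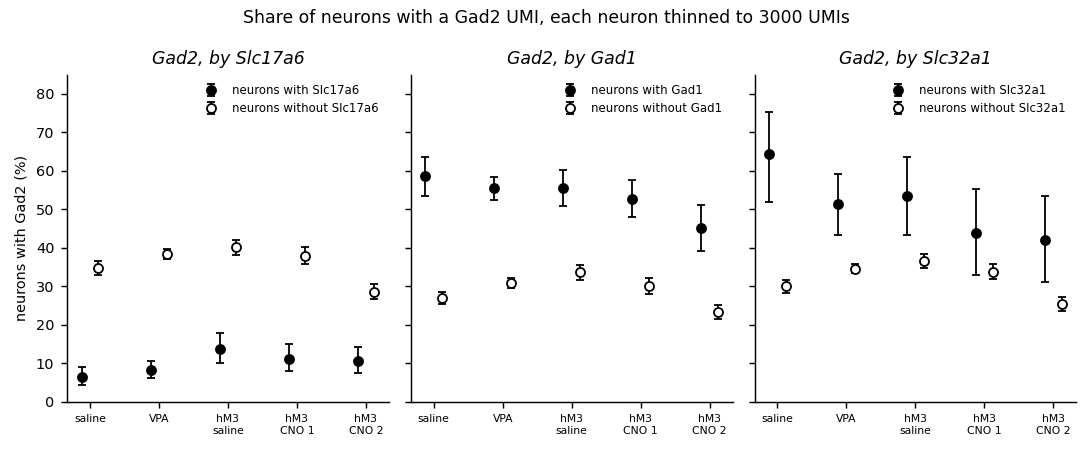
Share of neurons with a Gad2 UMI, in percent after thinning to 3000 UMIs, among neurons with (filled) and without (open) Slc17a6, Gad1 or Slc32a1, by library. Bars are 95% exact binomial intervals, and Gad2 runs from 6.32 to 13.5% with Slc17a6 and from 28.6 to 40.1% without.

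Over the 41 clusters of at least 50 neurons, Slc17a6 and Gad2 took opposite sides. At a level of 50 CPM, 11 clusters passed for Slc17a6 alone, 20 for Gad2 alone, 8 for both and 2 for neither. The 20 clusters with Gad2 alone held Slc17a6 at 1.80 to 45.6 CPM, and the 11 with Slc17a6 alone held Gad2 at 7.93 to 48.7 CPM. Pearson's r of log2(CPM + 1) over the clusters was -0.76 between Slc17a6 and Slc32a1, -0.76 with Gad1 and -0.75 with Gad2. It was 0.92 between Gad1 and Slc32a1, 0.91 between Gad1 and Gad2 and 0.89 between Slc32a1 and Gad2. These are descriptions over clusters that share libraries and depth. Slc17a7 and Slc17a8 followed neither set closely, with r of 0.21 and 0.36 to Slc17a6. To Gad2, Gad1 and Slc32a1, r was -0.42, -0.25 and -0.23 for Slc17a7 and -0.19, -0.26 and -0.29 for Slc17a8.

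**Figure D4:**
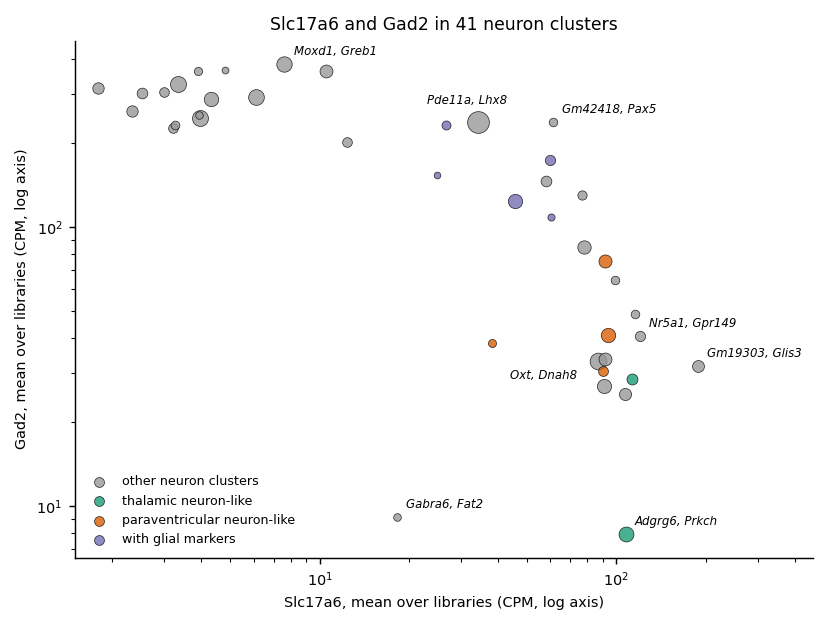
Level of Slc17a6 against Gad2 in the 41 neuron clusters, each the mean over libraries with at least 10 nuclei, in CPM on log axes, with point area growing with the number of neurons. Most clusters lie at high Gad2 with low Slc17a6 or the reverse; the Gm19303, Glis3 and Rnf220 cluster is highest for Slc17a6 (189 CPM) and the Moxd1, Greb1 and Lhx6 cluster for Gad2 (384 CPM).

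The cluster highest for Slc17a6 was led by Gm19303, Glis3 and Rnf220. It stood at 176 CPM in saline, 191 in VPA, 139 in hM3 saline, 211 in hM3 CNO replicate 1 and 228 in replicate 2, so its lowest library was above the mean of every other cluster. The Oxt cluster stood at Slc17a6 levels of 98.9, 105, 70.0, 93.0 and 85.9 CPM and Gad2 levels of 14.1, 7.3, 42.4, 38.5 and 49.6 CPM. Gad2 there, from 7 to 54 UMIs a library, was higher in all 3 libraries of the second experiment than in both of the first. The thalamic neuron-like clusters showed the same split, at 3.89 and 5.59 CPM of Gad2 in the first experiment and 14.04, 20.7 and 29.9 CPM in the second. Higher Gad2 levels in these Slc17a6-rich clusters stood beside the higher share of neurons with both kinds of gene in the second experiment, and their part in that share was not tested.

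In 8 clusters both Slc17a6 and Gad2 were above 50 CPM, 2 of them with glial markers. Of the thinned neurons in these clusters, 0 to 5.89% held both sets. Each set alone was seen in only a part of them at this depth, so a low share with both does not show that the sets exclude each other. In the cluster led by Prkch, Adgrg6 and Gm29478, 22.5% of thinned neurons had a Slc17 gene, 29.5% a GABA gene and 5.89% both, where the product of the 2 shares is 6.63%. This cluster, with Gad2 at 84.8 CPM, is not the thalamic neuron-like one led by Adgrg6, Prkch and Nox4, where Gad2 stood at 7.93 CPM. In the cluster led by Otx2os1, E130114P18Rik and Nfib the share with both was 1.23% and the product 4.94%. The share with both was below the product in 7 of these 8 clusters, and in 31 of all 41. Among the 7 were a cluster of 17 thinned neurons, with 0% holding both, and one led by Tns1, at 3.11 against 3.30%. In the cluster led by Hhip the share with both, 4.14%, was above the product, 2.91%. No interval was taken for these gaps. The cluster with the most neurons, 1645, was led by Pde11a, Lhx8 and Tac2, and held Slc17a6 at 34.1 ± 4.1 CPM (SD, n = 5 libraries) and Gad2 at 237 ± 27.8 CPM.

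Slc17a7 was found in few places. The Gabra6, Fat2 and Il16 cluster stood at 95.7 CPM in the VPA library, from 21 UMIs. The cluster led by Pdzrn3, Prdm16 and Ankrd33b stood at 74.1 CPM in saline and 63.6 CPM in VPA and held 0 UMIs in the 16 nuclei of hM3 saline and the 19 of hM3 CNO replicate 1. Gad2 averaged 251 CPM there, and 1.77% of its thinned neurons had both kinds of gene where the product of the shares is 8.39%. The thalamic neuron-like cluster led by Prkcd, Lef1 and Abhd12b followed, at 22.9 CPM on average. In hM3 CNO replicate 1 this last cluster gave 64.4% of all Slc17a7 UMIs of the library, and in replicate 2 it gave 34.1%, with a further 25.0% from a cluster with oligodendrocyte markers that held 16.3% of that library's neurons.

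Slc17a8 was highest in the cluster led by Nr5a1, Gpr149 and Hmcn2, genes of which Nr5a1 marks the ventromedial hypothalamus. Its level there was 90.0 CPM in saline, 20.3 in VPA, 15.02 in hM3 saline, 2.9 in hM3 CNO replicate 1 and 0 in replicate 2. The saline value came from 12 UMIs in 11 nuclei, and replicate 2 held 12 nuclei. The Gm19303, Glis3 and Rnf220 cluster gave the most Slc17a8 UMIs over all libraries, 62 of 469, at 15.9, 6.9, 1.0, 13.5 and 4.1 CPM. Slc17a8 levels thus differed between libraries within a cluster as widely as between clusters, on few UMIs.

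Slc32a1 was highest in the cluster led by Eepd1, Pvalb and Gm2115 (34.6 CPM), which was also the highest for Gad1 (234 CPM). It held at least 10 nuclei only in the CNO libraries, at 30.7 and 38.6 CPM of Slc32a1 and 227 and 242 CPM of Gad1. Gad2 was highest in the cluster led by Moxd1, Greb1 and Lhx6, at 403, 367, 413, 397 and 337 CPM. Every library of it was far above the Gad2 level of the paraventricular neuron-like group, which was 33.9 to 71.2 CPM.

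The balance of Gad1 and Gad2 differed between GABA neuron clusters. Over the 28 clusters with Gad2 above 50 CPM the ratio of Gad1 to Gad2 levels had a median of 0.38, and 17 lay between 0.30 and 0.45. The cluster led by 1700042O10Rik and Th among others, dopamine neuron-like by its markers (Th makes the dopamine precursor), had the lowest ratio, 0.077. Its Gad1 level was 12.7 to 45.3 CPM while Gad2 was 319 to 397 CPM, and the ratio ran from 0.032 to 0.13 over its 5 libraries. Next came the cluster led by Pdgfd, Cdh23 and Pax6, with Gad1 at 44.7 to 73.7 CPM, Gad2 at 346 to 391 CPM and ratios of 0.11 to 0.21. At the other end, the cluster led by 9330185C12Rik, Prr5l and Cdc14a had ratios of 0.59 to 0.86 in 3 libraries. The cluster led by Gm42418, Pax5 and Lars2 had the highest mean ratio, 0.72, with 78.6% of its neurons in hM3 CNO replicate 2. Its ratio ran from 0.39 to 1 over 3 libraries, and by summed UMIs it was 0.62, below the 0.67 of the 9330185C12Rik cluster. The low and the high ratios did not overlap in any library. The clusters were chosen here for their ratios, so these are descriptions with no test.

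Gad1 was also seen outside neurons. In oligodendrocyte progenitor-like nuclei (marked by Pdgfra, Vcan and others) Gad1 stood at 62.9 CPM in saline, 58.8 in VPA, 78.2 in hM3 saline, 58.7 in hM3 CNO replicate 1 and 43.5 in replicate 2, from 12 to 54 UMIs. Their Gad2 level was 4.97, 25.4, 24.6, 33.3 and 50.7 CPM. Over all libraries they held 178 Gad1 and 70 Gad2 UMIs, a ratio of 2.54 (95% exact interval 1.92 to 3.40). The same ratio was 0.37 in neurons, 0.34 (0.24 to 0.46) in oligodendrocyte-like and 0.43 (0.36 to 0.51) in astrocyte-like nuclei. The progenitor ratio by library was 12.7, 2.32, 3.18, 1.76 and 0.86, above that of the neurons in each, and its counting interval lay apart from that of the neurons in every library but hM3 CNO replicate 2. The part of free RNA in these values was not tested. At 3000 UMIs Gad1 was seen in 14.1 to 21.5% of progenitor-like nuclei, whose median depth was 2509 to 6577.5 UMIs.

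Slc32a1 departed from the neuron ratio in oligodendrocyte-like nuclei, with 60 UMIs against 161 of Gad2, a ratio of 0.37 (0.27 to 0.50) where neurons had 0.060 (0.058 to 0.063). Its level there was 4.70 to 8.07 CPM, and in astrocyte-like nuclei the ratio was 0.23 (0.18 to 0.29). Slc17a6 kept the neuron ratio to Gad2 in these glia: 0.35 in neurons, 0.34 in oligodendrocyte-like and 0.32 in astrocyte-like nuclei. Slc17a7 gave 1 UMI in 2714 oligodendrocyte-like nuclei and 7 in 4738 astrocyte-like nuclei, and Slc17a8 gave 3 and 5.

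**Figure D5:**
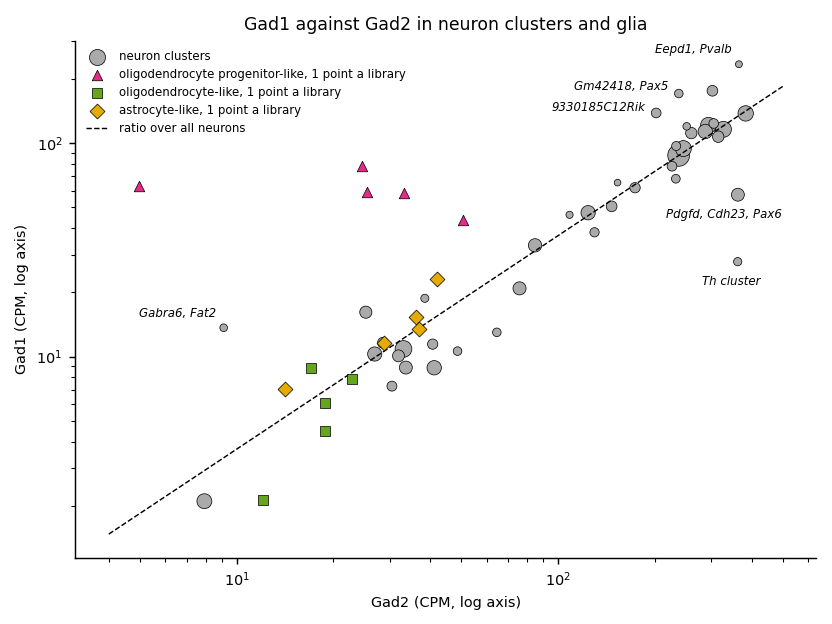
Level of Gad1 against Gad2 in CPM on log axes. Grey points are the 41 neuron clusters (mean over libraries, area growing with neurons), coloured points are glial classes with 1 point a library, and the dashed line is the UMI ratio over all neurons, 0.37; progenitor-like nuclei lie above it in all 5 libraries and the Th cluster lies below.

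Genes most like each member over the 41 clusters were taken among 11434 genes. For Slc17a6 they were Nrn1 (r = 0.86), F13a1 (0.82) and Cacna2d1 (0.77), the last a subunit of voltage-gated calcium channels. For Slc17a7 they were Gabrd (0.88) and Gabrb2 (0.80), GABA-A receptor subunits, and Msra (0.79). For Slc17a8 they were Traip (0.70), Tmem150c (0.65) and Lepr, the leptin receptor (0.60). For Gad2 they were Dlx6os1, a transcript of the Dlx5 and Dlx6 locus (0.95), Gad1 (0.91) and Gad1os (0.91). For Gad1 they were Slc32a1 (0.92), Gad2 (0.91) and Gad1os (0.91), and for Slc32a1 they were Gad1 (0.92), Gad2 (0.89) and Nrxn3, a presynaptic adhesion gene (0.84). Gad1os overlaps Gad1 on the other strand, and reads of the 2 cannot be told apart where strand is not used.

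Other genes of transmitter handling and lineage were compared between Slc17-only and GABA-only neurons, which the 6 genes define. Over 10329 genes at 10 CPM or more, 242 differed by more than 1.5-fold in the same direction in all 5 libraries, 2.34% of them. Lineage factors stood well apart. All 6 measured factors of the GABA lineage were lower in Slc17-only neurons past that fold, among them Dlx1, Dlx6os1, Lhx6, Meis2 and Pax6. Dlx6os1 ranged from 3.21 to 19.2 CPM in Slc17-only and from 65.2 to 113 CPM in GABA-only neurons, with no overlap. Of 4 measured factors of the glutamate lineage, Sim1, Tcf7l2 and Lef1 were higher in Slc17-only neurons past the fold in all 5, and Otp was higher in all 5 without passing it in each. Sim1, required for the PVH lineage, ranged from 70.4 to 159 CPM in Slc17-only and from 18.3 to 48.4 CPM in GABA-only neurons.

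Lists of transmitter handling were short, with 12, 5 and 3 measured genes, too few to set against the 2.34% of all measured genes that passed. Of 12 measured genes of glutamate handling, only Slc1a2, a glutamate uptake transporter best known from astrocytes, passed, higher in Slc17-only neurons in each library, at 90.6 to 185 CPM against 52.4 to 90.9 CPM. Of 5 measured genes of GABA handling 1 passed, lower in Slc17-only neurons. Abat and Aldh5a1, the GABA-degrading enzymes that valproate is known to inhibit, were lower in Slc17-only neurons in all 5 libraries without passing the fold. Of 3 measured genes of other transmitters, Ddc and Slc18a2, which serve dopamine and other monoamines, were lower past the fold in all 5.

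In the comparison of VPA with saline, Gad1 was the only member measured at 10 CPM that passed 1.5-fold. It stood at 43.3 CPM in saline and 67.9 CPM in VPA, 1.57-fold higher (log2 0.65, counting interval 0.57 to 0.73). Gad2 was 1.18-fold higher and Slc17a6 0.778 of the saline level. Of 9142 genes measured, 244 (2.67%) passed the fold, 147 higher (1.61%) and 97 lower (1.06%). With 3 members measured, 1 passing is a count and not a share, and no replicate exists in either arm. Slc17a8, below 10 CPM in both libraries, stood at 0.458 of the saline level, on 138 UMIs in saline and 60 in VPA.

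The Gad1 difference was smaller when the make-up of the neurons was held fixed. With the 28 clusters found in all libraries weighted equally, Gad1 was 54.5 CPM in saline and 62.2 CPM in VPA, a log2 difference of 0.19 on the log2(CPM + 1) scale, against 0.64 over all neurons. Gad2 was then 174.5 and 172.4 CPM, and Slc17a6 51.5 and 54.2 CPM, the reverse of its direction over all neurons. Within single clusters with enough counts, Gad1 was higher in VPA in 16 and lower in 6 of 22 (median log2 0.20), Gad2 was higher in 15 and lower in 15 of 30, and Slc17a6 was higher in 11 and lower in 6 of 17. In the paraventricular neuron-like group, Slc17a6 stood at 90.6 CPM in saline and 93.7 in VPA, and Gad1 at 4.66 and 10.0 CPM. Both Gad1 values are in cells where Gad1 is scarce.

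Of 5 lists of genes around the members, 4 held no gene past the fold with VPA, where 2.67% of all genes measured passed. These were 0 of 10 of glutamate handling, 0 of 5 of GABA handling, 0 of 3 of other transmitters and 0 of 4 GABA lineage factors, too few genes to set against that share. Abat, whose product breaks down GABA, differed by -0.06 and Aldh5a1 by 0.26 on the log2 scale. Among 3 measured glutamate lineage factors, Lef1 (49.7 CPM in saline, 12.9 in VPA) and Tcf7l2 (195 and 84.8 CPM) passed downward and Sim1 differed by -0.19. Lef1 and Tcf7l2 mark the thalamic neuron-like clusters whose share was 9.12% in saline and 2.64% in VPA.

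In the comparison of CNO with hM3 saline none of the 6 members was called. edgeR's quasi-likelihood test with Benjamini-Hochberg adjustment called 4 of 20107 genes (0.0199%), all higher, while 573 had an unadjusted p below 0.05, 1 member among them (Slc17a7). The 4 were Abhd12b (log2 fold change 3.33), Prkcd (2.34) and Lef1 (2.05), the genes that lead a thalamic neuron-like cluster, and Hcrt (3.66), the orexin precursor of lateral hypothalamic neurons; they are named after their values were seen, Lef1 excepted. DESeq2 called 6 genes and no member. Slc17a6 stood at 47.4 CPM in the control and at 59.4 and 61.3 CPM with CNO, with a log2 fold change of 0.24 and an adjusted p of 0.9995 in edgeR. Gad2 stood at 183 CPM in the control and at 165 and 123 CPM, with a log2 fold change of -0.45 (edgeR adjusted p = 0.9995). The 2 CNO libraries differed from each other in Gad2 by 0.42 on the log2 scale, more than replicate 1 differed from the control (0.15). For Gad1 replicate 1 lay above the control and replicate 2 below it, and for Slc32a1 and Slc17a8 the counting interval of the log2 ratio held 0 in both CNO libraries.

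Slc17a7 differed most of the 6, at 0.757 CPM in the control and 2.48 and 5.29 CPM with CNO, with an edgeR log2 fold change of 2.24 (adjusted p = 0.793, and 0.0594 to 0.9998 over the alternatives). The intervals of both CNO libraries lay above that of the control. Without the thalamic neuron-like clusters, whose share was 3.61% in the control and 9.52 and 10.6% with CNO, the levels were 0.368, 0.517 and 3.39 CPM, so replicate 1 came close to the control and replicate 2 stayed above it. The unnamed clusters rich in Tcf7l2 were not left out of these levels. The one led by Prkch gave 13.9% of the Slc17a7 UMIs of replicate 2. A cluster with oligodendrocyte markers gave 25.0% of them, and one with oligodendrocyte and microglia markers 8.17%. With equal weight for each cluster the Slc17a7 levels were 0.437, 0.528 and 1.34 CPM, on few UMIs. Under the same weighting Slc17a6 stood at 47.6, 55.9 and 53.4 CPM, Gad1 at 60.9, 62.1 and 58.5 CPM and Gad2 at 172.5, 171.4 and 167.3 CPM. The Gad2 levels of the 3 libraries, which ran from 123 to 183 CPM over all neurons, then ran from 167 to 173 CPM.

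Of the pathway lists, 1 gene was called with CNO. Lef1 rose from 19.1 CPM in the control to 77.6 and 92.5 CPM (log2 fold change 2.05, edgeR adjusted p = 0.0116), in the direction of the thalamic neuron-like share. Tcf7l2 stood at 99.7, 195 and 196 CPM with an edgeR adjusted p of 0.961. None of the 13 tested genes of glutamate handling, 7 of GABA handling, 10 of other transmitters or 13 of the GABA lineage was called. At an unadjusted p below 0.05, edgeR counted 0, 0, 2 and 1 of these, and 5 of 15 glutamate lineage factors, where 573 of all 20107 genes (2.85%) fell below it. These 5 did not share a direction. Sim1 was lower (log2 fold change -0.59), and Lef1, Tcf7l2, Lmx1a (3.02) and Lmx1b (2.62) were higher. Slc6a3, Bnc2 and Lmx1b led a dopamine neuron-like cluster of 37 neurons, all of them from hM3 CNO replicate 2.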

How the data were processed

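Single-nucleus RNA was counted as unique molecular identifiers in 5 libraries of sorted PVH nuclei. The count matrices were deposited by the authors as whole UMIs per gene and nucleus, made with Cell Ranger 7.0.1 on mm10, per the submitters' processing notes. Whether intron reads or strand were used is not given in the sources used here. Total UMIs were 52506958 to 76243280 a library. Of 32292 deposited nuclei, those under 1000 UMIs or with over 5% of UMIs from mitochondrial genes were dropped. The automatic threshold of the doublet caller Scrublet marked 0 to 0.07% of nuclei in 4 libraries and 2.95% in the other, so nuclei with the highest doublet scores were removed at a fixed rate of 0.8% per 1000 nuclei instead, leaving 29537. A custom Cre feature was kept out.

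Nuclei were clustered with scanpy 1.11.5 (2000 variable genes, 30 principal components, Leiden resolution 1 for all nuclei and 1.5 for neurons). The 6 genes, Oxt, Avp and Cre were left out of both clusterings. A neuron cluster was named where at least 3 markers of a type stood at 5 CPM or more and at 3 times or more their mean over the clusters. Neuron UMIs were summed per library. Shares were taken after thinning each neuron to 3000 UMIs, and intervals are 95% exact binomial or Poisson and cover counting error only. CNO was tested with edgeR 4.0.16 (quasi-likelihood, TMM, Benjamini-Hochberg adjustment), with DESeq2 1.42.0 as an alternative in R 4.3.3. With 1 residual degree of freedom the control was assumed to vary like the CNO libraries. VPA against saline has 1 library an arm, so ratios were taken on the log2(CPM + 1) scale over genes at 10 CPM or more. The scripts were tested on simulated data.

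The 6 genes and all lists were chosen with earlier results of these data known. Named genes were the 6, of each list the counts and up to 3 highest and 3 lowest genes, and the 3 genes most alike each member over clusters. Slc1a2, Ddc and Slc18a2 among others were named after their values were seen. Some genes are not reported here.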

Additional observations from a re-analysis of the deposited data

How the results depend on the processing

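Of 95 alternative values of the 8 main results, 68 stayed within the counting interval of the main value, within 1 SD of the CNO libraries or, for counts of genes, within 1.5 times. Another 26 moved past that, and 1 of a difference shown by both CNO libraries reversed. Of 132 alternative values of the 12 ratios of single genes, 97 stayed, 30 moved and 5 reversed. Staying within the spread does not keep a sign: with the values near 0 included, 4 of 78 differences in shares and 9 of 132 ratios changed sign. Among them the CNO ratio of Gad1, -0.15, was 0.13 without replicate 2, and that of Slc32a1, -0.037, ran to 0.22. The cause was not tested where none is given. The alternatives that left out the Gabra6-rich, glial-marker or thalamic neuron-like clusters were chosen after seeing the data. In percentage points of neurons, the Slc17-only difference between VPA and saline, -3.56, was -14.1 without thinning, where the libraries differ in depth, and -0.441 (counting interval -1.11 to 0.18) with detection at 2 UMIs or more. The GABA-only difference, 6.81, was 4.17 thinned to 1500 UMIs, 2.98 with detection at 2 UMIs and 4.48 without the thalamic neuron-like clusters. The difference in neurons with both kinds of gene, 0.381, was -0.168 at a neuron threshold of 10, 1.17 thinned to 5000 UMIs, -4.23 without thinning and -0.046 with detection at 2 UMIs. For CNO against hM3 saline, the Slc17-only difference, 3.59, was 1.58 at 1500 UMIs, 5.68 at 5000 UMIs, 1.41 with detection at 2 UMIs and 2.33 without the thalamic neuron-like clusters. The difference in neurons with both, 0.413, was 0.841 at a neuron threshold of 10, 0.717 at 20, 0.748 with doublets kept, -0.087 with doublets removed at double the rate, and 0.673 in neuron-like clusters only. It was 0.219 at 1500 UMIs, 1.51 at 5000 UMIs, 2.54 without thinning, 0 with detection at 2 UMIs, 0.261 without glial-marker clusters and 0.523 without the thalamic neuron-like clusters. Without either CNO replicate the Slc17-only difference ran from 2.72 to 4.46, the GABA-only difference, -6.97, from -12.1 to -1.83, and that of neurons with both from 0.405 to 0.421. edgeR with 1 library an arm could not be fitted. Genes past 1.5-fold with VPA, 244, were 113 with equal weight for each cluster, 71 with a pseudocount of 10 CPM and 609 with no filter on low values. Genes called with CNO, 4, were 18 with no filter on low counts. With equal weight for each cluster the log2 ratios of VPA to saline were 0.072 for Slc17a6, 0.25 for Slc17a7 and -0.017 for Gad2, and that of CNO to control was -0.48 for Slc17a8, all reversed. Slc17a7 was 0.16 for VPA without the thalamic neuron-like clusters, also reversed. No paired analysis was possible because the groups compared share fewer than 2 replicate numbers. At 3000 UMIs, neurons without a UMI of a gene cannot be taken to lack it.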
